A study of Arabidopsis thaliana with 60 samples.

Results

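Leaves of Arabidopsis thaliana plants grown on culture medium with sucrose were compared here with the first leaf pair of plants grown in soil, array by array, on the Affymetrix ATH1 gene chip. The comparison takes in 6 of the 60 arrays of a series on leaf development, 3 arrays for each of the 2 groups, and its members were chosen by the sample titles. All plants of both groups are of the Col-0 accession and carry no transgene or mutation named in the labels. The first group is labelled only as leaf, from plants on MS mineral medium at 1 times strength with 1% sucrose, in long days at 22 °C. The second group is labelled as leaves 1 and 2, from plants in soil, in continuous light, at 65% relative humidity and 23 °C. Leaf number and humidity are not given for the first group, and plant age is in the labels of neither. Medium, sugar supply, photoperiod, temperature, humidity and leaf identity or age therefore run together and cannot be told apart. Total RNA was hybridised after biotin labelling. The labels do not say whether the 3 arrays within a group are from different plants or cultures, and if they are not, the p-values reflect technical spread alone.

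Sugar is both a carbon source and a signal in leaves. In Arabidopsis, sugars supplied from outside are known to lower transcripts for photosynthesis and raise those for storage and anthocyanin pigments, and lack of sugar raises genes for protein and amino acid breakdown. Culture medium also sets the supply of iron, copper, sulfate and nitrate to the plant, and each of these has its own set of genes that respond to shortage.

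Each value below is a MAS5 signal, a brightness in arbitrary units scaled alike on every array. The 2 groups were compared by limma on log2(signal + 6.139), a scale that understates the change of dim genes, for 15808 probe sets. A probe set was called when its Benjamini-Hochberg adjusted p was below 0.05 and its log2 difference was at least 1 in either direction, and "rose", "fell", "higher" and "lower" are used of genes only for called differences. All log2 differences are leaves on sucrose medium minus the named partner, with their standard error (SE), and the arrays of each group are given in the order A, B, C.

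The 6 arrays had median signals of 32.2 to 36.6. Arrays correlated at 0.988 to 0.989 (Pearson, across the tested probe sets, n = 3 pairs) within the sucrose-medium group, at 0.985 to 0.988 (n = 3 pairs) within leaves 1 and 2, and at 0.934 to 0.937 (n = 9 pairs) between the groups. Green-leaf markers were bright in both groups, with RCA (rubisco activase) at 3846 ± 189 and 4992 ± 454 and SBPASE (a Calvin cycle phosphatase) at 2235 ± 25.4 and 3539 ± 138 (SD, n = 3 each). The single measured markers of root (EXPA7) and of the shoot meristem (CLV3) were below the filter on dim signals, none of the markers of stomata (2 tested) or trichomes (3 tested) was called, and none of the listed flower, phloem and xylem markers had a probe set annotated with 1 gene. On the control probe sets, the ratio of 3′ to 5′ actin signal was 1.76 to 1.85 on the sucrose-medium arrays and 2.12 to 4.86 on those of leaves 1 and 2, and the 25S ribosomal RNA signal was at most 351 against at least 432. Neither measure overlapped between the groups. The ratio for ubiquitin did not overlap either but ran the other way, at 3.61 to 3.97 against 3.08 to 3.59. That for GAPDH overlapped, at 0.824 to 1.15 against 1.08 to 1.36. The part of these control signals in the differences below was not tested.

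Leaves on sucrose medium differed from leaves 1 and 2 in 763 probe sets that were higher (4.83% of those tested) and 377 that were lower (2.38%). The median log2 difference over all tested probe sets was 0.05. Of the called probe sets, 361 higher and 175 lower ones carry 1 annotated gene. The largest rises and falls given here and below were ranked among these alone, with limits on array overlap and brightness. The 12 largest rises held 9 loci without a gene symbol, among them AT3G02480 and AT4G23680 at the top and AT1G47400 of the iron list, and 3 named genes, BHLH101 of the iron-deficiency response, the ER body β-glucosidase PYK10 and the lectin JAL22. The 12 largest falls were headed by LHCB4.3 (an antenna protein), CCS (a copper chaperone) and rps14 (a plastid ribosomal protein gene), followed by 8 loci without a symbol and ATPMEPCRB. Smaller called differences described below include rises of cold and dehydration genes and falls of calcium-binding and transcription factor genes of the rapid stress response. Arrays of the groups did not overlap, in one direction or the other, in 53.2% of tested probe sets, so a lack of overlap alone is common in this comparison.

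**Figure D1:**
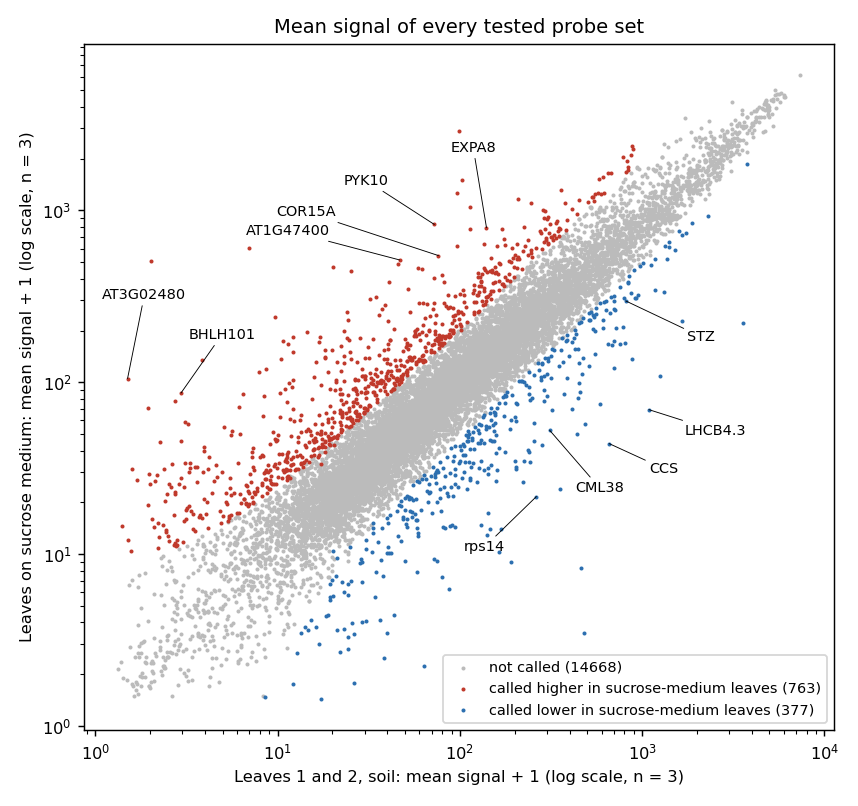
Mean signal plus 1 of each tested probe set in leaves 1 and 2 (x axis) and in leaves on sucrose medium (y axis), both log scales with 3 arrays a group. Red points are the 763 probe sets called higher and blue points the 377 called lower; BHLH101, AT1G47400 and PYK10 lie above the diagonal, and LHCB4.3 and CCS below it.

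BHLH101 and AT1G47400 of the iron list were among the largest rises, and 1 copper gene, CCS, was among the largest falls. BHLH101, a transcription factor of the iron-deficiency response, had signals of 93.4, 86.1 and 76.9 on sucrose medium and 1.9, 1.79 and 2.16 in leaves 1 and 2. It was thus bright on all arrays of the first group and near the lower end of the scale on all arrays of the second, a log2 difference of 3.50 (SE 0.29, adjusted p = 7.4e-15). The locus AT1G47400, also on the iron list, gave 492, 506 and 544 against 49.5, 40.5 and 47, with no overlap and a log2 difference of 3.33 (SE 0.18, adjusted p = 1.5e-22). PYE, a regulator of iron homeostasis, was the other tested member and was not called (87.5 ± 4.04 against 56.8 ± 10, log2 difference 0.58, SE 0.12). So 2 of 3 tested iron genes rose and none fell, beside 4.83% higher and 2.38% lower over all tested probe sets, the background to each count of members below, with a median log2 difference of 3.33 against 0.05 over all tested probe sets. Only 3 of 33 listed iron genes had a probe set with 1 gene. All lists were chosen with earlier results of these data known, so their shares, here and below, describe the listed genes and are no test. The locus AT5G05250, which is on no list, was among the 12 largest increases, at 400, 382 and 371 against 40.5, 38.8 and 39.7 (log2 difference 3.09, SE 0.18, adjusted p = 5.99e-21).

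Across all 20 groups of the series, BHLH101 and AT1G47400 were highest in leaves on sucrose medium. The next highest mean was in rosette leaf 2 for both, 27 for BHLH101 and 234 for AT1G47400. AT5G05250 came second, behind rosette leaf 2 at 478. The rise was also called against the other soil-grown partners. BHLH101 was higher by 3.15 (SE 0.29, adjusted p = 1.91e-13) than in leaf 4 sampled at 1 cm and by 3.29 (SE 0.29, adjusted p = 8.09e-14) than in short-day rosettes, and AT1G47400 by 2.30 (SE 0.18, adjusted p = 1.97e-16) and 4.37 (SE 0.18, adjusted p = 1.28e-27), all on the log2 scale. The leaf 4 group is Col-0 in soil, in continuous light at 65% humidity and 23 °C, and its labels note soil on the sampled tissue; the short-day group, numbered 87 in its titles, is vegetative rosettes of Col-0 in soil, with 10 h light and 14 h dark, at 22 °C. Both comparisons use the same sucrose-medium arrays as the main one, so they are not independent of it.

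CCS encodes the copper chaperone that delivers copper to Cu/Zn superoxide dismutase. Its signal was 36.5, 40.6 and 51.6 on sucrose medium and 654, 667 and 655 in leaves 1 and 2, so every sucrose-medium array lay more than 10 times below every soil array. The log2 difference was -3.77 (SE 0.084, adjusted p = 4.63e-39). Leaves on sucrose medium had the lowest and leaves 1 and 2 the highest CCS mean of the 20 groups, the next lowest being senescing leaves at 131. CCS was also lower than in leaf 4 at 1 cm (-3.36, SE 0.084, adjusted p = 6.52e-37) and in the short-day rosettes (-1.90, SE 0.084, adjusted p = 7.96e-26). The only other tested copper or zinc gene, ARPN (plantacyanin, a small copper protein), was not called (10.3 ± 0.418 against 16.4 ± 3.94, log2 difference -0.44, SE 0.17).

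**Figure D2:**
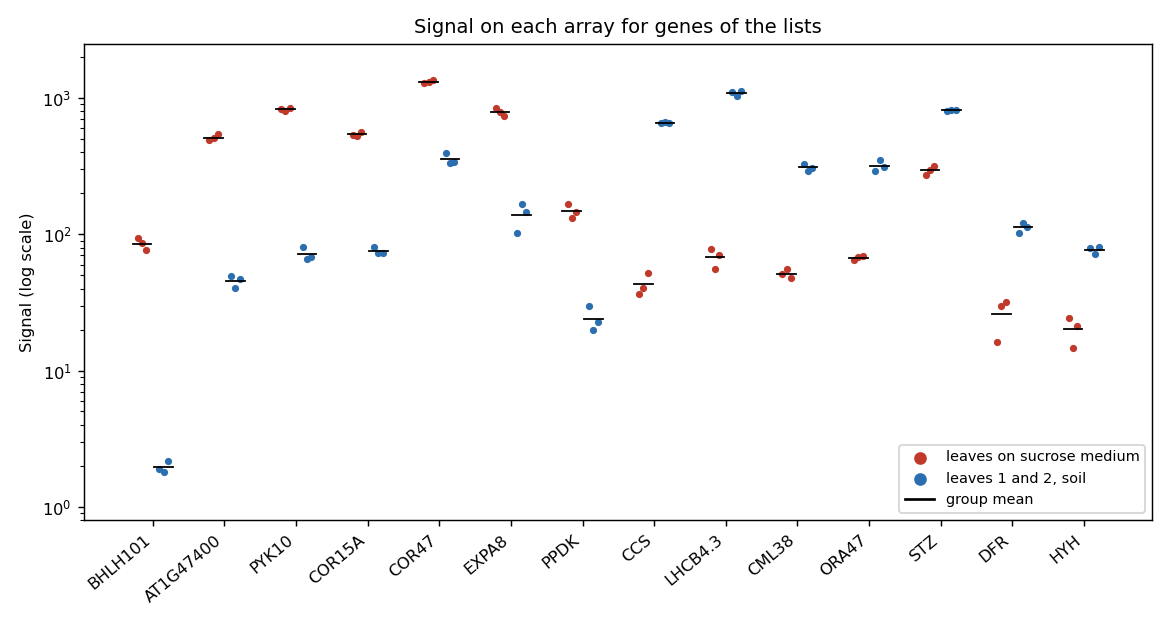
Signal on each array (log axis) for 14 genes of the lists, red for leaves on sucrose medium and blue for leaves 1 and 2, with black lines at the group means of 3 arrays. In each of the 14 genes the red and blue points do not overlap; BHLH101 differs most upward and LHCB4.3 and CCS most downward.

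Genes named for their link to sugar moved in both directions. Among 13 tested sugar transporters, 4 rose (30.8%, against 4.83% of all tested), 1 fell (7.69%, against 2.38%) and 8 were not called, with a median log2 difference of 0.52. SAG29 (SWEET15), a plasma membrane sucrose exporter known from senescing leaves, rose from 10.9, 16.6 and 4.72 to 58.7, 55.7 and 64.8 (log2 difference 2.03, SE 0.27, adjusted p = 6.64e-09). TMT2, which loads sugars into the vacuole, gave 159, 183 and 173 against 80.1, 70.8 and 74.3 (log2 difference 1.13, SE 0.13, adjusted p = 2.09e-10). Its mean on sucrose medium was the highest of the 20 groups by a small margin, 172 ± 12.2 (SD) against 167 in senescing leaves. SWEET16, a vacuolar sugar carrier, rose by 1.11 (SE 0.13, adjusted p = 7.07e-10) and the listed transporter locus AT5G61520 by 1.29 (SE 0.1, adjusted p = 1.8e-15). SWEET2, another vacuolar carrier, went the other way, with 129, 106 and 108 against 216, 267 and 238 (log2 difference -1.03, SE 0.09, adjusted p = 2.45e-14). Its call rests on the fold limit: the difference was -0.95 without array B of leaves 1 and 2, -0.98 without array B and -0.99 without array C of the sucrose-medium group, and was then not called. Against the short-day set 87, SAG29 was higher by 1.36 (SE 0.27, adjusted p = 3.24e-05), and AT5G61520 differed by 0.99 (SE 0.1) and was not called. TMT2 (0.21, SE 0.13), SWEET16 (-0.00, SE 0.13) and SWEET2 (-0.08, SE 0.09) were not called against set 87 either.

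Of the genes that sugar is known to hold low, 1 of 4 tested rose. This was PPDK (pyruvate orthophosphate dikinase, used in moving amino acid carbon), with 167, 132 and 147 on sucrose medium and 29.6, 19.8 and 22.7 in leaves 1 and 2 (log2 difference 2.37, SE 0.1, adjusted p = 4.91e-26). Leaves 1 and 2 had the lowest PPDK mean of the 20 groups, 24 against 25.2 in rosette leaf 12, and leaves on sucrose medium held place 9 from the top. Against the short-day set 87 PPDK was not called (149 against 130, log2 difference 0.19, SE 0.1). IVD, which breaks down branched-chain amino acids, was 93.4 ± 7.9 against 47.2 ± 3.61 (log2 difference 0.90, SE 0.12), MCCA of the same route was 143 ± 14.2 against 194 ± 8.9 (-0.42, SE 0.081), and both stayed within the fold limit. The 2 tested genes known to be raised by sugar are both subunits of ADP-glucose pyrophosphorylase, the enzyme that commits carbon to starch, and neither was called. APL4 was 23.7, 25.4 and 34.8 against 12.9, 13.4 and 14.2 (log2 difference 0.78, SE 0.17, adjusted p = 0.000172) and APL3 42.2, 42.3 and 42.4 against 28, 30.1 and 28.8 (0.46, SE 0.14, adjusted p = 0.00541), so the arrays did not overlap but the differences were below the fold limit. None of 4 starch enzymes (median log2 difference 0.21) and none of 3 sucrose enzymes (median -0.39) was called, the largest difference among the sucrose enzymes being at AT1G62660, a listed locus of sucrose cleavage (78.7 ± 9.83 against 144 ± 9, log2 difference -0.83, SE 0.11).

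Of the nuclear photosynthesis genes 1 fell and the others were not called. LHCB4.3 encodes an isoform of CP29, a minor antenna protein of photosystem II. Its signals were 77.9, 55.8 and 70.9 on sucrose medium and 1113, 1040 and 1125 in leaves 1 and 2, a log2 difference of -3.90 (SE 0.087, adjusted p = 4.63e-39). The sister isoforms LHCB4.1 (4596 ± 426 against 6071 ± 410, log2 difference -0.40, SE 0.083) and LHCB4.2 (3883 ± 196 against 4247 ± 394, -0.13, SE 0.063) were not called. Over the 7 tested photosystem genes 1 fell and none rose, and all 7 differences were negative, with a median of -0.23. In the series as a whole LHCB4.3 was lowest in leaves on sucrose medium, with the next lowest mean, 128, in the short-day set numbered 90, while leaves 1 and 2 held place 10 of the 20 groups. Against the short-day set 87 the difference was -1.36 (SE 0.087, adjusted p = 3.87e-19) and against leaf 4 at 1 cm -3.30 (SE 0.087, adjusted p = 4.93e-36).

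None of 5 Calvin cycle and photorespiration genes and none of 8 chlorophyll synthesis genes was called, although 12 of these 13 differences were negative. Their medians were -0.39 and -0.36, against 0.05 over all tested probe sets. The listed locus AT1G80380 was 804, 717 and 803 against 1272, 1413 and 1427 (log2 difference -0.82, SE 0.086, adjusted p = 9.75e-12) and SBPASE 2210, 2235 and 2261 against 3396, 3548 and 3672 (-0.66, SE 0.07, adjusted p = 1.53e-11). In both genes the arrays did not overlap and the adjusted p was below 0.05, but the fold limit was not met. In chlorophyll synthesis the most negative were HEMA2 (49 ± 2.76 against 85.1 ± 9.9, -0.72, SE 0.14), for the first committed step of the pathway, and GSA1 (548 ± 43.9 against 890 ± 24.6, -0.70, SE 0.082), for the step after it. PORB, the protochlorophyllide reductase, was the exception with a positive difference of 0.26 (SE 0.09).

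Some plastid-encoded genes fell and most were not called. Of 66 tested plastid genes 9 fell (13.6%, against 2.38% of all tested probe sets), none rose and 57 were not called, with a median log2 difference of -0.20. By role, 3 of 36 photosynthesis genes, 3 of 10 genes of the NADH dehydrogenase-like complex and 3 of 20 genes for ribosomal proteins, RNA polymerase and maturase fell. The lowest was rps14, a ribosomal protein gene, at 12.8, 22.9 and 26 against 324, 248 and 215 (log2 difference -3.34, SE 0.19, adjusted p = 3.88e-21). Next came petD of the cytochrome b6f complex, at 43.1, 37.5 and 37.1 against 226, 274 and 210 (-2.41, SE 0.15, adjusted p = 1.15e-19), and ndhF, at 22.2, 9.58 and 8.67 against 85.9, 88.3 and 87.4 (-2.32, SE 0.26, adjusted p = 6.68e-11). The remaining 6 were rpoB (-1.64, SE 0.25), petN (-1.41, SE 0.15), ndhG (-1.25, SE 0.15), psbB (-1.21, SE 0.33), ndhE (-1.03, SE 0.22) and rpl20 (-1.02, SE 0.14).

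Some of these calls depend on single arrays. psbB, the core antenna CP47 of photosystem II, ranged from 1293 to 3236 in leaves 1 and 2 and had a difference of -0.91 without array C of that group. ndhE lost the call without array A (-0.96) or C (-0.92) of the sucrose-medium group and without array B (-0.99) or C (-0.96) of leaves 1 and 2. rpl20 lost it without array C of the sucrose-medium group (-0.99) and, by a narrow margin, without array A of leaves 1 and 2. Among the genes of the same complexes that were not called, 3 picked after their values were seen are given here: psbA, the D1 reaction centre protein, was 1718 ± 12.4 against 1193 ± 417 (log2 difference 0.59, SE 0.34), ndhD 1693 ± 20.4 against 1177 ± 343 (0.57, SE 0.22), and petB, which encodes a partner of the petD protein in the same complex, 3167 ± 283 against 4002 ± 692 (-0.33, SE 0.1). Of the 41 plastid probe sets with a mean above 1000 in leaves 1 and 2, 1 fell (psbB). In 6 of the 9 that fell, leaves on sucrose medium had the lowest mean of the 20 groups. For rps14 (20.6 ± 6.93) and ndhF (13.5 ± 7.55) the next means, 23 and 15.1 in the short-day set 90, were within the SD. Against the short-day set 87, rps14 (-0.58), rpoB (-0.62) and ndhF (-0.83) were not called, and the others of the 9 were lower (-1.19 to -1.56). Against leaf 4 at 1 cm, rps14, petD, ndhF and rpoB were lower and the others were not called. None of 21 tested probe sets annotated with mitochondrial gene symbols was called, and their median log2 difference was -0.02. The actin and 25S control signals given above differ between the same arrays, and their part in the plastid differences was not tested.

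**Figure D3:**
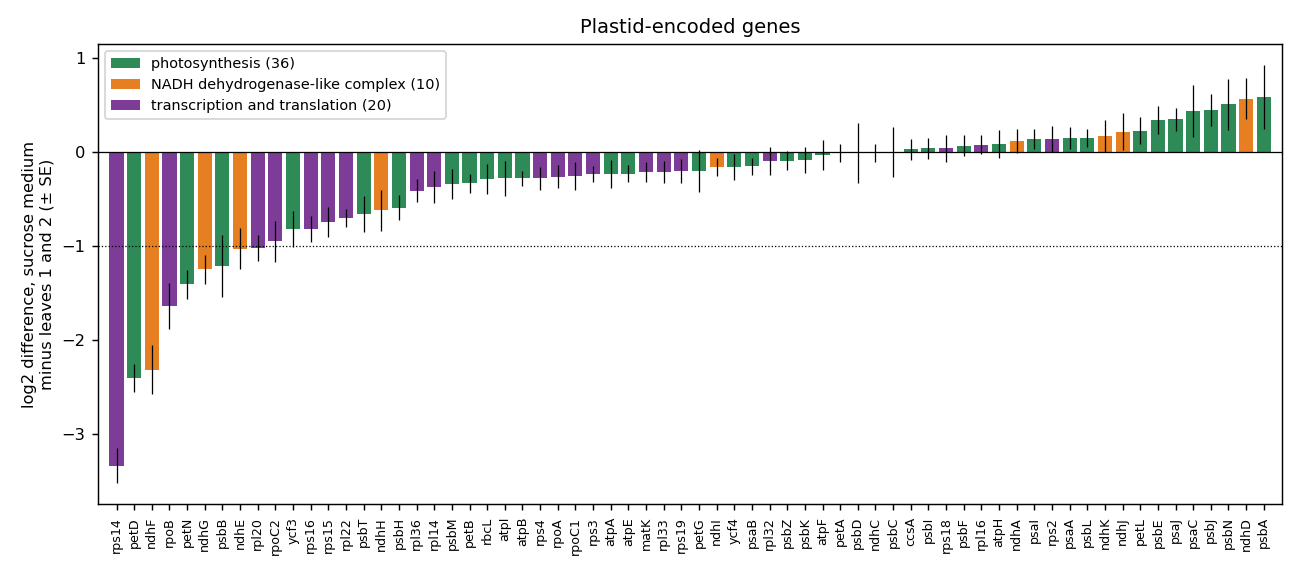
Log2 difference of each of the 66 plastid-encoded genes, leaves on sucrose medium minus leaves 1 and 2, ordered from lowest to highest, with SE of the limma fit as lines and the dotted line at the fold limit for a fall. Colours mark photosynthesis genes (36), NADH dehydrogenase-like complex genes (10) and genes for transcription and translation (20); rps14, petD and ndhF stand apart at the left and most genes lie close to 0.

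All 4 tested genes of the cold and dehydration list rose, with a median log2 difference of 1.90. COR15A, whose product protects chloroplast membranes in the cold, gave 540, 530 and 565 on sucrose medium and 80.4, 72.6 and 72.8 in leaves 1 and 2 (log2 difference 2.76, SE 0.11, adjusted p = 4.25e-27). Its neighbour and close copy COR15B gave 686, 637 and 710 against 172, 163 and 187 (1.92, SE 0.12, adjusted p = 1.03e-19), and probe sets for such close copies may share signal. The dehydrins COR47 (1296, 1310 and 1361 against 399, 332 and 341) and LTI30 (108, 93.6 and 107 against 25.9, 32.2 and 29.5) differed by 1.87 (SE 0.071, adjusted p = 8.82e-29) and 1.62 (SE 0.13, adjusted p = 2.86e-15). In each gene the lowest sucrose-medium array was above the highest soil array.

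The cold and dehydration genes were not set apart from every soil group. From the highest mean down, leaves 1 and 2 held places 14 to 17 of the 20 groups for the 4 genes, and leaves on sucrose medium place 1 for COR15B, 5 for COR15A, 7 for COR47 and 9 for LTI30. Against the short-day set 87, COR15A differed by -0.41 (SE 0.11), COR15B by 0.34 (SE 0.12) and LTI30 by 0.47 (SE 0.13), and COR47 was higher by 1.49 (SE 0.071, adjusted p = 1.86e-24). Against leaf 4 at 1 cm the differences were 3.25, 1.82, 2.87 and 1.85 for COR15A, COR15B, COR47 and LTI30. Other genes called higher and known from drought or abscisic acid responses, picked out after their values were seen, were HIS1-3, a linker histone (90.3, 93.5 and 88.8 against 9.75, 11.9 and 8.35, log2 difference 2.59, SE 0.13, adjusted p = 6.98e-23), LEA4-5, a late embryogenesis abundant protein (2.12, SE 0.24), ALDH7B4, a turgor-responsive aldehyde dehydrogenase (1.81, SE 0.074), and XERICO, a RING-type regulator of abscisic acid level (1.57, SE 0.091). Not all such genes went up. Of 4 tested genes with a cold-regulated symbol 3 rose, and 1 was not called, with a difference of -0.81. SRC2, outside the list and also picked after its values were seen, was lower (650 ± 22.2 against 1402 ± 35, -1.10, SE 0.12, adjusted p = 2.44e-11).

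Most tested genes of the rapid wound, touch and elicitor response fell. Of 7 members 5 fell (71.4%, against 2.38% of all tested probe sets), none rose and 2 were not called, with a median log2 difference of -1.44 against 0.05 over all tested probe sets. CML38, a calmodulin-like calcium sensor, was 51.2, 55.3 and 47.9 against 330, 294 and 305 (log2 difference -2.46, SE 0.13, adjusted p = 3.1e-22). ORA47, an AP2/ERF activator of jasmonate synthesis genes, was 65.2, 68.5 and 68.8 against 294, 353 and 313 (-2.14, SE 0.1, adjusted p = 2.11e-24), and STZ, a zinc-finger repressor, 273, 296 and 320 against 804, 819 and 820 (-1.44, SE 0.085, adjusted p = 8.43e-21). None of the 3 genes overlapped between the groups. CML37, a close relative of CML38 that was dim in both groups (1.99 ± 1.17 against 15.9 ± 3.3), fell by 1.44 (SE 0.19) and the ubiquitin ligase gene PUB23 by 1.40 (SE 0.18). CML41 had the opposite sign (0.89, SE 0.16) and was not called, but counted as a rise when array B of leaves 1 and 2 was left out, and PUB22, the close relative of PUB23, was not called either (-0.71, SE 0.18).

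For these genes the result depends on the soil partner. STZ was lower on sucrose medium than in leaves 1 and 2 but higher than in leaf 4 at 1 cm (2.00, SE 0.085, adjusted p = 6.51e-27) and than in the short-day set 87 (2.36, SE 0.085, adjusted p = 7.12e-30). CML38 was likewise higher than in leaf 4 at 1 cm (1.71, SE 0.13, adjusted p = 3.04e-16), and its difference from set 87 was 0.63 (SE 0.13). ORA47 was -0.57 (SE 0.1) against leaf 4 and -1.0 (SE 0.1) against set 87. Cotyledons had the highest mean of the 20 groups for all 3 genes, leaves 1 and 2 held place 2 for CML38, 3 for ORA47 and 4 for STZ, and leaves on sucrose medium place 15 in each. Among the 12 largest decreases, the loci AT4G27654 (7.12, 16.8 and 14.9 against 162, 182 and 156), AT4G27657 (16.4 ± 1.26 against 142 ± 27.4, mean and SD) and AT2G27080 (59.9, 81.8 and 64.3 against 378, 456 and 401) were also highest in cotyledons with leaves 1 and 2 second. Their log2 differences were -3.22 (SE 0.16), -2.70 (SE 0.23) and -2.49 (SE 0.21).

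Jasmonate and salicylate defence were represented by 7 tested genes, of which 1 rose and 1 fell, too few to set against the 4.83% and 2.38% of all tested probe sets. Of 4 jasmonate and ethylene defence genes 1 rose, OSM34, an osmotin-like protein, at 31, 26.1 and 20.1 against 0.493, 1.5 and 1.37 (log2 difference 2.12, SE 0.29, adjusted p = 1.04e-08). The defensin gene PDF1.2b was 38.3 ± 10.4 against 16 ± 4.5 (1.00, SE 0.2) and just missed the fold limit; it passed when array B of leaves 1 and 2 was left out, as it did without array A or B of the sucrose-medium group. Of 3 salicylate genes 1 fell, GRX480, a glutaredoxin, at 18.3, 21.1 and 15.9 against 43, 49.7 and 42.6 (-1.06, SE 0.12, adjusted p = 1.41e-10), with -0.99 and no call without array C of the sucrose-medium group. Outside the lists, and chosen after their values were seen, 2 enzymes of the jasmonate route were lower: OPCL1, a CoA ligase of jasmonate synthesis, at 93.7, 102 and 98.6 against 437, 460 and 449 (-2.13, SE 0.067, adjusted p = 2.95e-32), and JMT, which methylates jasmonic acid, at 0.369, 6 and 2.74 against 30.8, 27.9 and 26 (-1.95, SE 0.17, adjusted p = 4.71e-14). Leaves on sucrose medium had the lowest mean of the 20 groups for both.

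ER bodies are compartments of Brassicaceae cells that store β-glucosidases with affinity for glucosinolate-like substrates. PYK10, their main β-glucosidase in seedlings, had signals of 826, 804 and 854 on sucrose medium and 80.2, 65.7 and 68.2 in leaves 1 and 2 (log2 difference 3.43, SE 0.19, adjusted p = 3.08e-22). NAI2, needed to form ER bodies, was 137 ± 22.3 against 70.7 ± 1.26 and was not called (0.88, SE 0.13). Of 4 tested jacalin-related lectins, a family with members known to bind PYK10, 3 rose and 1 was not called. JAL22 was 154, 154 and 140 against 12.9, 11.4 and 9.43 (3.2, SE 0.17, adjusted p = 2.86e-22), JAL33 140, 132 and 122 against 15.4, 21.8 and 8.55 (2.73, SE 0.24, adjusted p = 5.66e-14) and JAL34 258, 231 and 220 against 63.3, 63.6 and 62.7 (1.8, SE 0.14, adjusted p = 1.85e-16). JAL23 stayed at 9.88 ± 2.2 against 10.8 ± 3.51 (-0.07, SE 0.15). The 3 short-day rosette sets were the only groups with a higher mean of PYK10, JAL22 or JAL33 than leaves on sucrose medium. For JAL34 the higher means were those of short-day sets 87 and 89 and, by a small margin, cotyledons. Against the short-day set 87 the differences were -1.33 (SE 0.19, adjusted p = 3.31e-08), -0.96 (SE 0.17, not called), -1.49 (SE 0.24, adjusted p = 1.15e-06) and -1.83 (SE 0.14, adjusted p = 1.3e-16) in that order.

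Within the glucosinolate list 2 of 6 tested members rose, PYK10 and BCAT4, the aminotransferase that starts methionine chain elongation, at 701, 670 and 702 against 335, 292 and 262 (log2 difference 1.21, SE 0.092, adjusted p = 1.71e-16). UGT74B1, which glucosylates the core structure, was 222 ± 6.44 against 210 ± 15.3 (0.08, SE 0.1). GTR1, a glucosinolate transporter outside the list and picked after its values were seen, was lower, at 127, 136 and 125 against 477, 421 and 458 (-1.76, SE 0.069, adjusted p = 4.52e-28), the lowest mean of the 20 groups. In sulfate assimilation 1 of 5 tested genes rose, APS4, an ATP sulfurylase, at 206, 211 and 193 against 54.9, 60 and 57.3 (1.72, SE 0.1, adjusted p = 7.25e-21). Its relative APS3 (117 ± 2.19 against 210 ± 8.13, -0.81, SE 0.073) and SIR, the sulfite reductase of the route (428 ± 11.8 against 755 ± 13.2, -0.81, SE 0.087), had the opposite sign and were not called. None of 3 nitrate genes was called (median log2 difference 0.41).

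**Figure D4:**
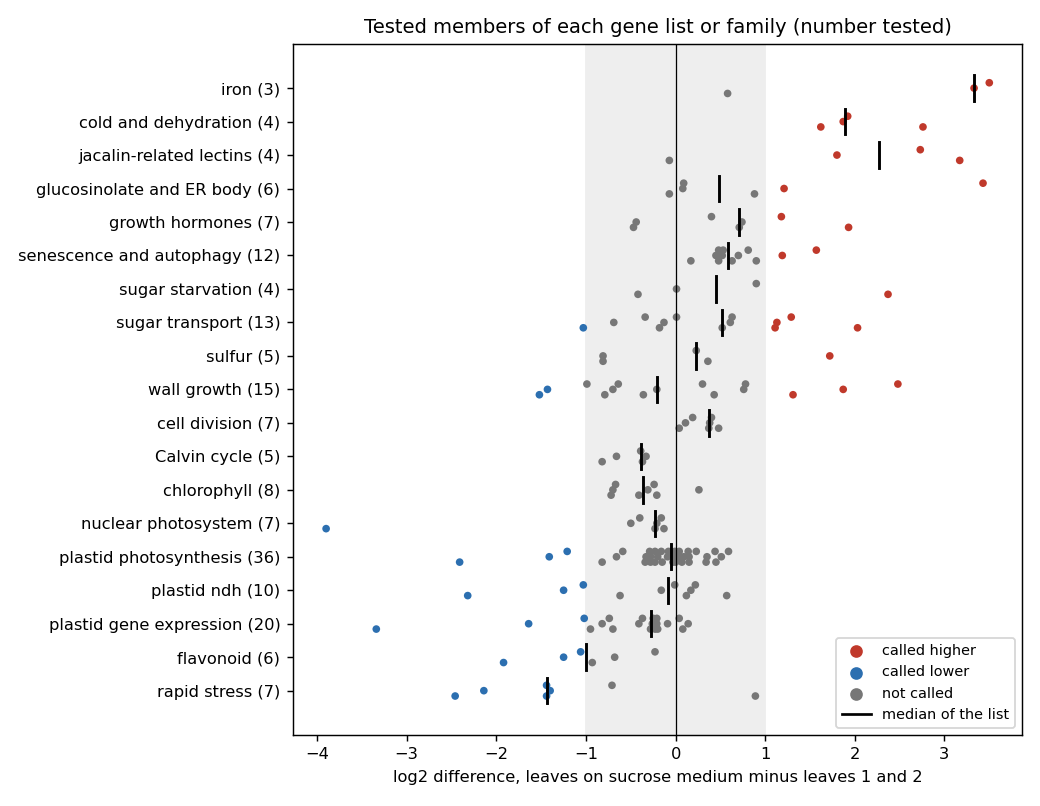
Log2 difference of every tested member of 19 gene lists and families, leaves on sucrose medium minus leaves 1 and 2, in red where called higher, blue where called lower and grey where not called, with the list's median as a black line and the shaded band below the fold limit. All cold and dehydration members and most iron and lectin members lie to the right of the band, most rapid stress members and 3 of the 6 flavonoid members to its left, and cell division, Calvin cycle and chlorophyll members inside the band.

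Of 6 tested flavonoid and anthocyanin genes 3 fell and 3 were not called, and all 6 log2 differences were negative, from -1.92 to -0.23. DFR, the reductase that leads into anthocyanins, was 16.1, 29.9 and 31.9 against 102, 121 and 114 (log2 difference -1.92, SE 0.18, adjusted p = 5.32e-13). UF3GT, which adds a sugar to anthocyanins, was 19.5, 22.6 and 15.9 against 51.5, 40.5 and 48.4 (-1.06, SE 0.14, adjusted p = 3.54e-09) and the listed locus AT4G14090 7.21, 8.8 and 1.68 against 21.6, 27.3 and 16.3 (-1.25, SE 0.22, adjusted p = 5.45e-06). Both lost the call without array C of the sucrose-medium group, at -0.96 for UF3GT and -0.96 for AT4G14090, which left 1 of 6 called. UF3GT also lost it without array A of leaves 1 and 2 (-0.99). UGT78D1 and UGT78D2, flavonol glycosyltransferases, had differences of -0.93 (SE 0.099) and -0.68 (SE 0.12) and were not called. The list's median was -0.99 against leaves 1 and 2, -0.59 against leaf 4 at 1 cm and -2.60 against the short-day set 87. The level in set 87 was higher than in either group of the main comparison for DFR, where the difference from it was -3.65 (SE 0.18, adjusted p = 1.55e-23), while senescing leaves had the highest mean of the 20 groups (1680). The same held for AT4G14090 (-3.58, SE 0.22) and UF3GT (-3.06, SE 0.14), with 1405 and 1123 in senescing leaves.

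Light signalling was represented by 1 tested gene, HYH, a bZIP factor that acts with HY5 in light responses. It fell, at 24.4, 14.7 and 21.2 on sucrose medium against 79.6, 71.3 and 80.1 in leaves 1 and 2 (log2 difference -1.68, SE 0.14, adjusted p = 2.71e-15). Leaves 1 and 2 had the highest and leaves on sucrose medium the lowest HYH mean of the 20 groups. The lowest mean (20.1 ± 4.93) was within its SD of the next, 22.9 in the short-day set 90. Of 4 tested clock and photoperiod genes 1 rose, GI, which links the clock to flowering time, at 208, 216 and 213 against 117, 98.6 and 87.6 (1.04, SE 0.12, adjusted p = 1.73e-10). GI was not called without array C of leaves 1 and 2 (0.95). Leaves 1 and 2 grew in continuous light and the sucrose-medium plants in a day-night cycle, and harvest times are not in the labels.

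Growth-related genes moved in both directions. Among 15 tested expansins and xyloglucan-modifying enzymes, which loosen and remodel the cell wall, 3 rose (20%, against 4.83% of all tested probe sets), 2 fell (13.3%, against 2.38%) and 10 were not called, with a median log2 difference of -0.21. EXPA8 was 845, 791 and 744 on sucrose medium and 103, 168 and 146 in leaves 1 and 2 (log2 difference 2.48, SE 0.13, adjusted p = 9.42e-23), and its mean was the highest of the 20 groups, ahead of 352 in 1 cm leaf 4 of the gl1-T line. EXPB3 rose by 1.87 (SE 0.11, adjusted p = 2.07e-21) and XTH19 by 1.31 (SE 0.22, adjusted p = 2.09e-06). EXPA16 went down, at 22.2, 18.6 and 16.3 against 70.6, 60 and 67.3 (-1.52, SE 0.14, adjusted p = 8.09e-14), as did XTH18, at 41.7, 37 and 40.5 against 111, 137 and 107 (-1.43, SE 0.24, adjusted p = 2.03e-06). XTH18 and XTH19 are close copies of each other, and their probe sets moved in opposite directions. XTH18 was higher on sucrose medium than in leaf 4 at 1 cm (1.91, SE 0.24, adjusted p = 2.12e-09). EXPB3 was lower on sucrose medium than in the short-day set 87 (-1.62, SE 0.11, adjusted p = 7.75e-19). EXPA8 (1.25, SE 0.13, adjusted p = 1.14e-11) and XTH19 (1.61, SE 0.22, adjusted p = 3.26e-08) were higher than in set 87.

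Of 7 tested genes of growth hormones 2 rose (28.6%, against 4.83% of all tested probe sets), both of auxin response, and none fell. IAA29, an Aux/IAA repressor, was 96.8, 103 and 105 against 21.5, 21.5 and 23.5 (log2 difference 1.93, SE 0.18, adjusted p = 3.03e-13), the highest mean of the 20 groups. WES1 (GH3.5), which conjugates auxin to amino acids, was 85.3, 83.6 and 80.4 against 30.6, 32.4 and 36.9 (1.18, SE 0.12, adjusted p = 4.58e-12). Against the short-day set 87, IAA29 was higher by 1.36 (SE 0.18, adjusted p = 1.17e-08) and WES1 was not called (0.03, SE 0.12). HAT2, an auxin- and shade-responsive homeodomain factor outside the list and picked after its values were seen, was 166, 198 and 195 against 80.1, 76.5 and 71.3 (1.23, SE 0.13, adjusted p = 3.78e-11) and was also highest of the 20 groups. The cytokinin-responsive regulators ARR15 and RR16 were not called (-0.44, SE 0.21 and -0.47, SE 0.14).

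None of 7 cell division genes was called, and their differences ran from 0.04 to 0.48. The largest, TOPII (topoisomerase II), was 45.4, 52.3 and 59.8 against 32.2, 40.8 and 34.5 (0.48, SE 0.24, adjusted p = 0.0994). Against the short-day rosettes the same list had a median of -0.60. Of 6 leaf shape genes NGA1, which restrains growth at the leaf margin, rose (62.1, 60.6 and 55.2 against 23.9, 27.7 and 25.9, 1.03, SE 0.16, adjusted p = 2.11e-07) but not without array A of leaves 1 and 2 (0.99). Its difference from the short-day set 87 was -0.10 (SE 0.16) and was not called. None of 5 flowering and phase-change genes was called, with SNZ, a repressor of flowering, at 38 ± 1.03 against 66.7 ± 2 (-0.72, SE 0.17) and AGL24 at 10.2 ± 2.93 against 3.47 ± 2.54 (0.78, SE 0.19).

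In the senescence and autophagy list all 12 tested differences were positive, and 2 were called (16.7%, against 4.83% of all tested probe sets). These were the vacuolar processing enzymes GAMMA-VPE, at 476, 463 and 462 against 148, 148 and 164 (log2 difference 1.57, SE 0.067, adjusted p = 1.81e-26), and BETA-VPE, at 69.6, 50 and 65.4 against 27.3, 29.7 and 15.1 (1.19, SE 0.16, adjusted p = 5.65e-09), which was not called without array C of leaves 1 and 2 (0.96). The ATG8 genes encode the small protein that coats autophagosomes. Their 9 tested probe sets had differences of 0.17 to 0.90 with a median of 0.63, and none was called, though 1 was when array B of leaves 1 and 2 was left out. ATG8F was 1228, 1190 and 1271 against 770, 749 and 752 (0.70, SE 0.06, adjusted p = 1.89e-14). For GAMMA-VPE leaves on sucrose medium held place 6 and leaves 1 and 2 place 19 of the 20 groups, and senescing leaves reached 4967.

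In the larger enzyme families most members were not called. Of 28 tested UDP-glycosyltransferases 2 rose (7.14%, against 4.83% of all tested probe sets), UGT72E1, which glucosylates lignin precursors (138, 125 and 147 against 29.7, 30.6 and 31.4, log2 difference 1.96, SE 0.13, adjusted p = 6.32e-19), and UGT73B1 (1.10, SE 0.14, adjusted p = 1.1e-09), and none fell. Without array B of leaves 1 and 2, 4 rose, and under quantile normalization 1 rose and 1 fell. Among 14 cytochrome P450 genes 2 rose (14.3%), CYP71B26 (264, 260 and 275 against 80, 62.1 and 69.2, 1.84, SE 0.11, adjusted p = 7.33e-21) and CYP71B23 (1.45, SE 0.12, adjusted p = 1.9e-15). None of 7 tau-class glutathione transferases was called. These families, the plastid genes and the lectins were grouped by gene symbol after results of these data were known.

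The 12 largest rises and 12 largest falls hold 9 and 8 loci without a gene symbol in the annotation. The largest rise was at AT3G02480, with 104, 115 and 93.6 on sucrose medium and 0.34, 0.371 and 0.795 in leaves 1 and 2, where it was lowest of the 20 groups (log2 difference 4.05, SE 0.24, adjusted p = 6.66e-21). The next lowest mean was close, 0.775 in rosette leaf 6, and leaves on sucrose medium came second to rosette leaf 2 at 186. AT4G23680 gave 232, 236 and 247 against 7.96, 8.45 and 9.53 (4.05, SE 0.25, adjusted p = 6.4e-20). AT2G05540 gave 1481, 1484 and 1522 against 94.8, 100 and 112 (3.80, SE 0.18, adjusted p = 4.29e-25), the highest mean of the 20 groups, ahead of senescing leaves at 499. The other rises among the 12 were AT4G29030 (3.90), AT2G25625 (3.40), AT1G20030 (3.27) and AT5G33370 (3.19). At the other end AT2G36885 gave 72.7, 80.8 and 66.7 against 600, 534 and 615 (-2.89, SE 0.09, adjusted p = 1.3e-32), the highest mean of the 20 groups being that of leaves 1 and 2. AT2G16660 gave 126, 147 and 132 against 823, 915 and 891 (-2.65, SE 0.083, adjusted p = 1.65e-32). The remaining falls were AT4G32800 (-2.80), AT2G24600 (-2.54), AT1G19020 (-2.48) and ATPMEPCRB (-2.52), a pectin methylesterase gene.

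Against the other soil partners, 898 probe sets were higher (5.68% of those tested) and 487 lower (3.08%) on sucrose medium than in leaf 4 at 1 cm, and 481 higher (3.04%) and 364 lower (2.3%) than in the short-day set 87. Mean correlation with the sucrose-medium arrays was highest for set 87 (0.946) and next for leaves 1 and 2 (0.935). For the 12 largest rises against leaves 1 and 2, the difference from leaf 4 was at least 1 in all 12, and that from set 87 was at least 1 in 7 and at most -1 in 2, AT4G29030 (-1.29, SE 0.27) and PYK10. For the 12 largest falls the difference from leaf 4 was at most -1 in 6 and at least 1 in 1, AT2G27080 (1.59, SE 0.21), and that from set 87 was at most -1 in 4. The 3 comparisons share the sucrose-medium arrays.

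The 20 group means show which of the 2 groups stood apart. Of the 763 probe sets called higher, leaves on sucrose medium had the highest mean of all groups in 175 (22.9%) and leaves 1 and 2 the lowest in 106 (13.9%). Over all tested probe sets these shares were 4.33% and 5.33%. Of the 377 called lower, leaves on sucrose medium were lowest in 87 (23.1%, against 4.01% of all tested) and leaves 1 and 2 highest in 43 (11.4%, against 3.93%). The same arrays made the calls, so these shares describe the called probe sets and are no test. BHLH101, AT1G47400, EXPA8, TMT2 and IAA29 are of the first kind, PPDK and AT3G02480 of the second, LHCB4.3 and GTR1 of the third, and SWEET2 of the fourth. The margin to the next group was within the SD for TMT2 (172 ± 12.2 against 167 in senescing leaves) and PPDK (24 ± 5.01 against 25.2 in rosette leaf 12). CCS and HYH are of both the third and the fourth. For HYH the lowest mean (20.1 ± 4.93) was within its SD of the next, 22.9 in the short-day set 90.

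**Figure D5:**
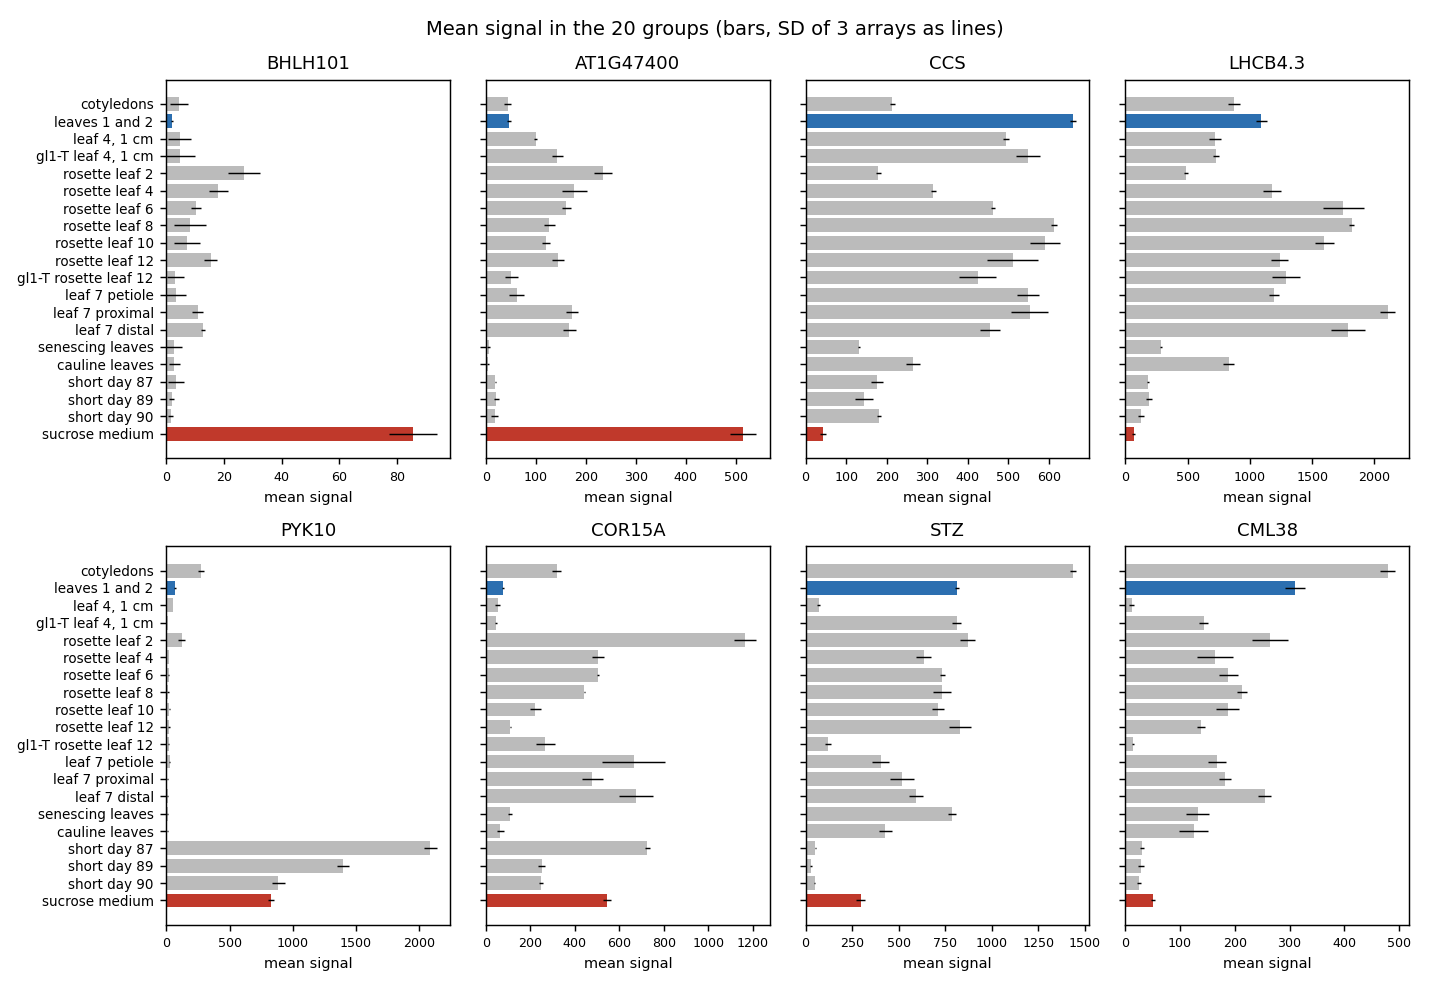
Mean signal of 8 genes in each of the 20 groups (bars from 0, SD of 3 arrays as lines), with leaves on sucrose medium in red, leaves 1 and 2 in blue and the other 18 groups in grey. Sucrose-medium leaves are highest for BHLH101 and AT1G47400 and lowest for CCS and LHCB4.3; for PYK10 the short-day sets are higher, and for STZ and CML38 cotyledons are highest.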

How the data were processed

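The deposited values are one matrix of Affymetrix ATH1 intensities for 60 arrays in 20 groups of 3. The authors made these intensity values with MAS5, per the submitters' processing notes, and on each array the mean after trimming 2% at each end is 100, per the deposited values. Background settings and detection calls were not used here. 64 control probe sets were left out of the tests. Gene names come from the platform annotation, updated through the RefSeq table of assembly TAIR10.1: 13513 of 22810 probe sets carry 1 gene, 503 several (not named) and 8730 none, and 13436 matched RefSeq. Plastid genes were recognised by their RefSeq chromosome; mitochondrial symbols had no RefSeq match.

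Signals were taken to log2(signal + 6.139), where the added pseudocount is the 20th percentile of an array, taken as the median of the 60 arrays. A probe set was kept if some group had all its arrays above their own 40th percentile, which left 15808. limma 3.58.1 in R 4.3.3 fitted the 20 group means to all 60 arrays (40 residual degrees of freedom, eBayes with trend), with Benjamini-Hochberg adjustment over all 15808. The number of arrays limits the precision. The fit was checked on simulated data. The files give no scan or slide batch.

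Genes were named by rule: the 12 largest called increases and 12 largest called decreases among probe sets with 1 gene, no overlap between the 6 arrays and a brighter mean above the 60th percentile, then up to 6 called members of each of 38 gene lists, or up to 2 members as values where none was called. Of 884 listed genes 163 had a probe set with 1 gene; 10 whose symbol disagreed with the locus were dropped, and the heat, phosphate and flower, phloem and xylem lists had no tested member. The members of the comparison and the lists were chosen with earlier results of these data known, and 14 families by symbol were added after that. Alternatives were pseudocount, filter, quantile normalization, array weights, the 2 groups alone, the array letter as a block, and each array left out. The array letters recur in every group, but the labels do not say what they mark. Same-letter arrays of the 2 groups deviated together with correlations of 0.02 to 0.05, so the letters were not taken as pairs.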

Additional observations from a re-analysis of the deposited data

How the results depend on the processing

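The direction of none of the 120 called genes reversed under any alternative. With a pseudocount 4 times larger, which shrinks differences of dim genes, the counts fell to 400 higher and 219 lower against leaves 1 and 2, to 551 and 237 against leaf 4 at 1 cm, and to 252 and 206 against the short-day set 87, and 35 of the 120 genes lost the call. Among the lists and families the larger pseudocount left 3 rapid stress, 1 flavonoid and no salicylate genes called lower, and 2 sugar transporters and no jasmonate defence, clock or leaf shape genes called higher, while a pseudocount of 1 raised the P450 genes called higher to 4 and the UDP-glycosyltransferases to 6. Under the other alternatives the counts over all probe sets stayed within 1.5 times the reported ones. Leaving out 1 array gave 768 to 784 higher and 377 to 389 lower against leaves 1 and 2, 901 to 914 and 487 to 522 against leaf 4, and 489 to 525 and 354 to 394 against set 87, and 16 genes lost the call at least once, 10 did so under quantile normalization. The share of called-higher probe sets with the sucrose-medium mean on top was 18.7% to 30% and that of called-lower probe sets with leaves 1 and 2 on top 9.16% to 13.7%. With the array letter as a replicate block the counts were 763 higher and 377 lower, and the block changed no other call. Both groups hold letters A, B and C, so a block leaves each log2 difference unchanged and these counts cannot show what the letters mark. Deviations of each sucrose-medium array correlated best with its own letter in leaves 1 and 2, though weakly (0.05, 0.02 and 0.02 against at most -0.02, 0.00 and 0.01 for another letter). Against leaf 4 this held for array B alone, and against set 87 for no array, so the letters were not read as a batch. Dim genes, among them AT3G02480, AT2G25625, BHLH101, OSM34, CML37 and JMT, have signals near or below the pseudocount in 1 group, so their fold is set by it.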
